A study of Rattus norvegicus with 105 samples.

Results

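Gene expression in rat gastrocnemius, the large calf muscle, was compared between 3 months and 1 month after metal pellets had been implanted. The comparison took the 42 arrays made for aluminum (Al), copper (Cu), depleted uranium (DU), iron (Fe), lead (Pb), tantalum (Ta) and tungsten (W) at these months, 21 arrays at each, chosen by their titles; the other 63 arrays of the series were outside it. Cobalt (Co) and nickel (Ni) were left out of it, and their 12 arrays at the same months are set beside it where that is useful. All rats were male Sprague-Dawley animals, bought at about 30 days of age and kept for at least 2 weeks before surgery. Each carried 4 cylinders of its metal, 1 mm wide and 2 mm long, 2 in each limb. Tantalum was the implanted sham, so every group had surgery and a foreign body, and no group without an implant was used here. Each Clariom S Rat array measured RNA pooled from 2 to 3 of the 8 rats assigned to a metal and month, with 3 pools per group. A p-value is therefore set against the spread between pools, not between single rats. In the comparison over all metals, that spread also takes in differences between metals in the change. The months were separate cohorts of rats, so time since implantation cannot be told apart from the rats' age or from the cohort.

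Skeletal muscle is held together by an extracellular matrix, in which type I and III collagen form the fibrils and type IV collagen the basement membrane around each fibre. Fibroblasts and fibro-adipogenic progenitors make most of this matrix during postnatal growth and after injury, with chaperones and enzymes that fold, trim and cross-link collagen. Around an implant, macrophages and giant cells gather and fibroblasts lay down a collagen capsule. The question put to these arrays was which of these programs, and which programs of the muscle fibres, stood at another level 3 months after implantation than 1 month after it, whatever the metal.

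The lower genes of the 3-month arrays were led by fibrillar collagens. Of 17 measured genes for collagens and matrix proteins, 16 fell and none rose. Over all 22954 probe sets tested, 2313 (10.1%) were lower and 2168 (9.44%) higher at 3 months at an adjusted p below 0.05, which is 19.5% in either direction. Centring every array on its own median turned the share of higher calls among all calls from 48.4% to 60.6%, so the split between directions depends on the scaling. The changes were mostly small. Of the called probe sets, 1 higher and 4 lower ones reached 2-fold. A difference of 1 on the log2 scale used below is a 2-fold difference, and the median over all probe sets was -0.0012.

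The promoter windows of 3 genes that fell are shown here because they serve different steps of the same pathway: Col1a2 encodes the second chain of type I collagen, Postn a matrix protein of healing and remodelling tissue, and Serpinh1 the collagen chaperone HSP47. Each is the 250 bases before the annotated start, read 5' to 3' on the gene's strand from RefSeq's GRCr8 assembly, with motif matches in capitals. They lie at chr4:33518307-33518556 (plus strand), chr2:140677811-140678060 (plus strand) and chr1:163062977-163063226 (minus strand).
Col1a2: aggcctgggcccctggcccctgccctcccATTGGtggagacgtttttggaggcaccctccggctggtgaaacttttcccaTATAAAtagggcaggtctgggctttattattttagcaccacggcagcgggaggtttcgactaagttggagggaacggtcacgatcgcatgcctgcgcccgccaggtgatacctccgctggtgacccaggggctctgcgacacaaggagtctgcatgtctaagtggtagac
Postn: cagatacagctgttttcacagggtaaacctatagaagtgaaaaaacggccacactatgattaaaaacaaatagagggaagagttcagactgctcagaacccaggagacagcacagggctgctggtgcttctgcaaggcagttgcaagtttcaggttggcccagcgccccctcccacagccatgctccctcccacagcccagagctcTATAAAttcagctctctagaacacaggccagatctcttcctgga
Serpinh1: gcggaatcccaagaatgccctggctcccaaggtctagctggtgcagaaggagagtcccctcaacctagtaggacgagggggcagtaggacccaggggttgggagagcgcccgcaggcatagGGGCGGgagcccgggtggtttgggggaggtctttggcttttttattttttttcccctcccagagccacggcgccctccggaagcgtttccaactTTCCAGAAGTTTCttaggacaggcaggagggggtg
The motifs searched, on both strands, were the CCAAT box, the TATA box as TATAAA, the Sp1-type box as GGGCGG, and the heat shock element as TTC, then GAA, then TTC with any 2 bases between each. No matches overlapped in these 3 windows. Col1a2 held the CCAAT box on the opposite strand (221 to 217 bases before the start) and TATAAA (170 to 165 bases before it). Postn held TATAAA 44 to 39 bases before its start. Serpinh1 held GGGCGG and, 35 to 23 bases before its start, the only heat shock element among these 3 windows. The window of Sparc, a matrix gene that also fell, was searched as well and held none of these motifs. Of 33469 windows in the table, 34% held the CCAAT box, 12.9% the TATA box, 30.5% the Sp1-type box and 0.663% the heat shock element. Of the 34 measured matrix and collagen-processing genes, 23 had a window, and 17.4%, 17.4%, 56.5% and 8.7% of these windows held the same 4 motifs. These matches describe letters and are no evidence that a factor bound.

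Col1a1, the main chain of type I collagen, had a log2 level between 11.05 and 12.55 at 1 month (median 11.66 of 21 arrays) and between 9.72 and 11.56 at 3 months (median 10.55). The ranges over all metals overlapped, but in each of the 7 metals all 3 arrays at 3 months lay below all 3 at 1 month, which over all probe sets happened in at least 6 metals for 0.357%. This and the separations given below were seen in the arrays by which the genes were chosen, so they are no separate support. Col1a1 fell by 1.08 on the log2 scale (SE 0.11, adjusted p = 2.2e-09, limma). In tissue RNA, fewer cells of a type and less RNA per cell cannot be told apart, here and below. Ranges in this order, 1 month and then 3 months, are given for the other genes too. Col3a1, the type III chain, ranged from 10.25 to 12.29 (median 10.90) and then from 9.48 to 10.82 (median 9.86), and fell by 1.01 (SE 0.11, adjusted p = 4.7e-08). Col1a2 ranged from 10.94 to 12.35 and then from 9.62 to 11.53, and fell by 0.92 (SE 0.11, adjusted p = 6.5e-08). For these genes the 3-month median lay below the lowest 1-month array.

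**Figure D1:**
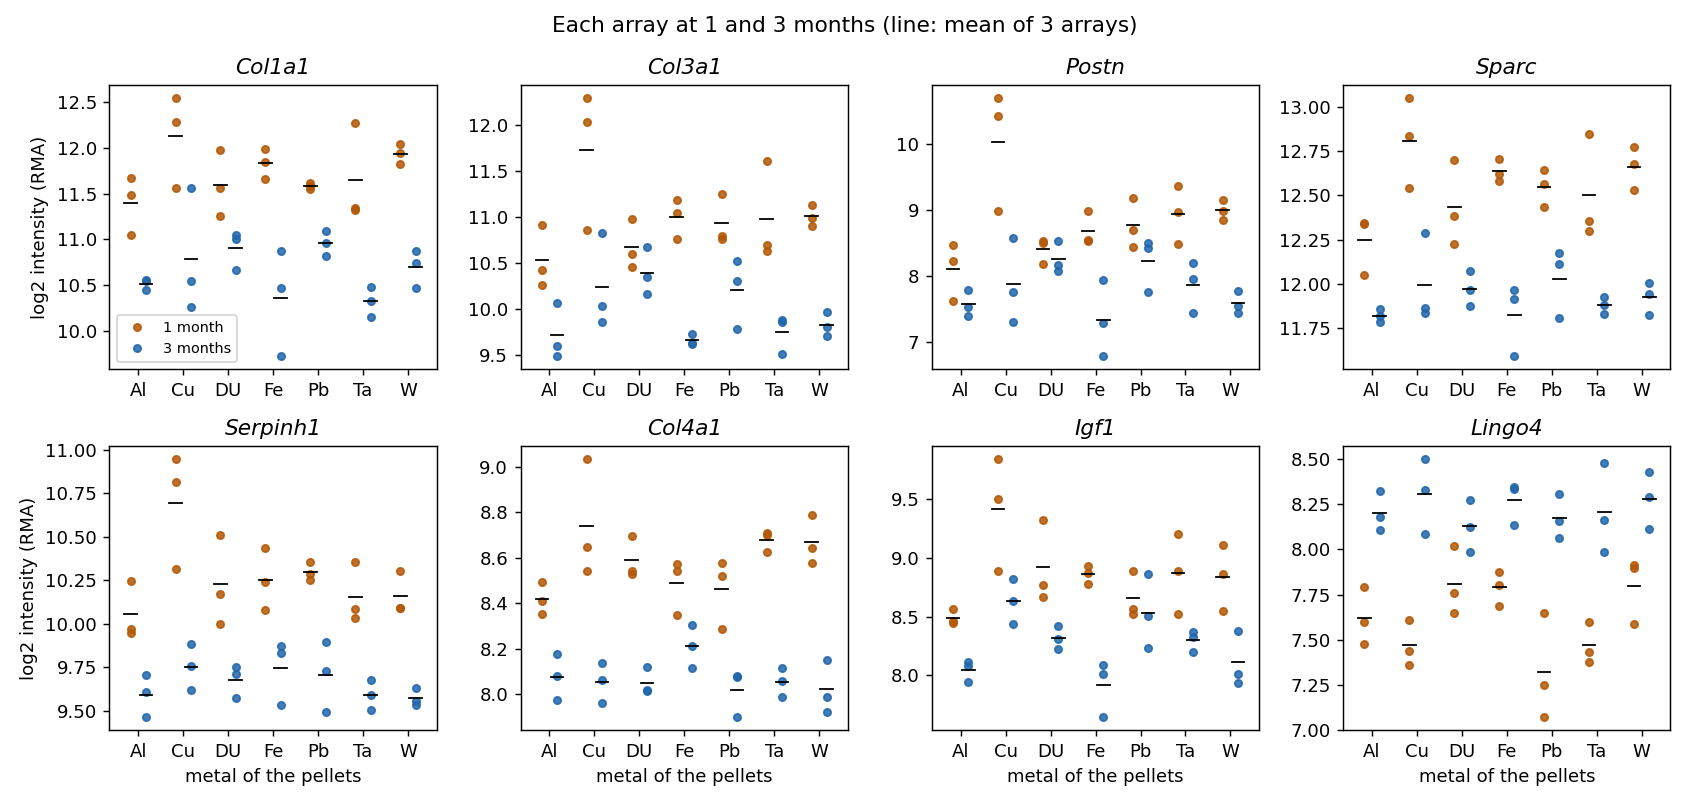
Log2 intensity of each array (y axis) by metal (x axis) for 8 genes, with 1 month in orange and 3 months in blue, and a line at the mean of the 3 arrays. For Col1a1, Sparc, Serpinh1 and Col4a1 the 3 blue points lie below the 3 orange ones in all 7 metals, and for Lingo4 they lie above them in 6.

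Periostin (Postn) spread more than the fibrillar collagens, from 7.62 to 10.70 at 1 month (median 8.70) and from 6.78 to 8.58 at 3 months (median 7.77). It fell by 1.03 (SE 0.15, adjusted p = 7.1e-06), and its change within a metal ran from -2.15 in copper muscle to -0.15 in depleted uranium muscle. Whether that span exceeds the spread between pools was asked by the test of the 7 changes against each other, and Postn did not pass it. Sparc, a collagen-binding protein of remodelling matrix, ranged from 12.05 to 13.05 (median 12.57) and then from 11.59 to 12.29 (median 11.88). It fell by 0.63 (SE 0.06, adjusted p = 2.5e-10), with all arrays of the 2 months apart in each of the 7 metals. The basement membrane chain Col4a1 lay between 8.29 and 9.04 and then between 7.90 and 8.31, nearly apart over all 42 arrays, and fell by 0.51 (SE 0.04, adjusted p = 1.0e-10).

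Further members fell by less than Col1a1, Col3a1 and Col1a2. Fbn1, the fibrillin of elastic microfibrils, fell by 0.59, Col6a2 of the pericellular type VI collagen by 0.55 and Col15a1, which links basement membrane to fibrils, by 0.41. Lum, a small proteoglycan on collagen fibrils, ranged from 7.32 to 9.99 and then from 6.80 to 7.75, and fell by 0.66 (SE 0.13, adjusted p = 0.00042). Of its changes within a metal, the one in copper was the largest, at -1.97. Fibronectin (Fn1) was 0.36 lower (SE 0.12, adjusted p = 0.031), a call that did not hold without the copper, iron or tungsten arrays (adjusted p = 0.133, 0.0991 and 0.153), nor without the 3-month replicates 2 of copper and 3 of tungsten together (0.08), the arrays whose descriptions carry a suffix. It was also lost without the 1-month replicates 1 and 3 of copper, its 3-month replicates 2 and 3, the 1-month replicate 3 of tantalum or the 3-month replicate 2 of tungsten (0.0505 to 0.053), and with cobalt and nickel added (0.288). The member that did not pass was Bgn, another small proteoglycan, at -0.28 (SE 0.10, adjusted p = 0.056), though it did in 19 of the 60 alternatives. The list's median was -0.51, and 12 of its 17 members were below 0 in all 7 metals, against 5.04% of all probe sets.

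As a mean over its 17 members, the matrix list ranged from 8.96 to 10.4 per array at 1 month (median 9.47) and from 8.56 to 9.29 at 3 months (median 8.88). Its median change was -0.34 in aluminum, -1.08 in copper, -0.21 in depleted uranium, -0.70 in iron, -0.27 in lead, -0.56 in tantalum and -0.55 in tungsten. None of the 17 passed the test for a change that differed between metals, so these medians are not shown to differ. The value of the tantalum sham lay within the range of the other metals.

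**Figure D2:**
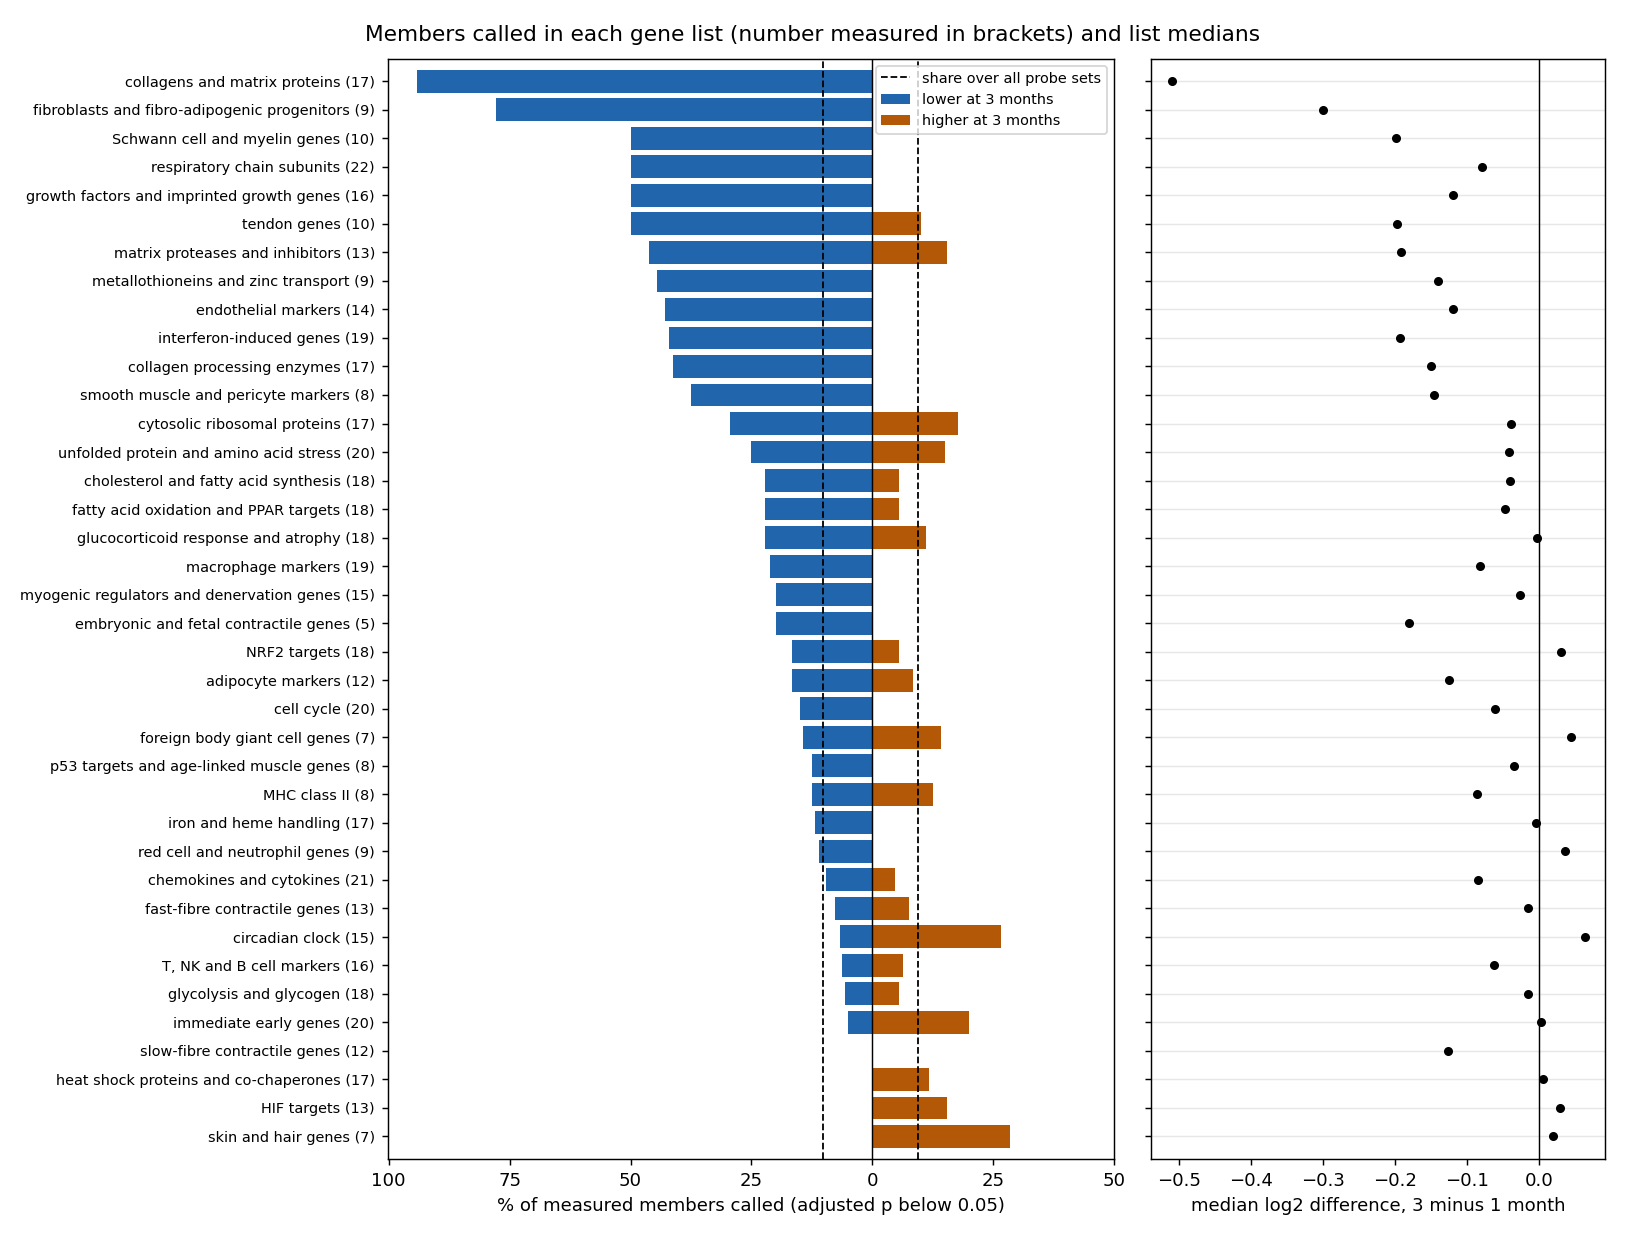
Left, the percentage of each list's measured members that were lower (blue, to the left) or higher (orange, to the right) at 3 months, with dashed lines at the shares over all probe sets, 10.1% and 9.44%. Right, the median log2 difference of the list's members, 3 minus 1 month, which was -0.51 for collagens and matrix proteins and -0.30 for fibroblasts.

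Enzymes and chaperones of collagen production fell in part: 7 of 17 measured were lower and none higher, with a median of -0.15. Serpinh1, whose promoter is shown above, had its lowest 1-month array at 9.95 (median 10.25, highest 10.95) and its highest 3-month array at 9.89 (median 9.63, lowest 9.46). It was thus 1 of 6 probe sets (0.0261%) whose 21 arrays at 3 months all lay below the 21 at 1 month, and it fell by 0.60 (SE 0.05, adjusted p = 3.0e-10). No probe set was fully separated in the other direction. Loxl2, a lysyl oxidase that cross-links collagen, ranged from 6.70 to 8.32 and then from 6.18 to 7.05, and fell by 0.75 (SE 0.09, adjusted p = 3.0e-07). Pcolce and Bmp1, which act together in removing the procollagen C-terminal propeptide, fell by 0.50 and 0.36.

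The other named genes among those 6 were Dnmt3a, a de novo DNA methyltransferase, and Pea15, a small adaptor of the ERK pathway; 3 had no symbol here. Dnmt3a lay between 7.99 and 8.57 (median 8.28) and then between 7.64 and 7.99 (median 7.81), and fell by 0.46 (SE 0.04, adjusted p = 3.7e-11). Its closest arrays of the 2 months lay apart by less than the rounding shown. Pea15 ranged from 8.50 to 8.91 (median 8.72) and then from 7.85 to 8.40 (median 8.26), and fell by 0.49 (SE 0.04, adjusted p = 2.9e-10).

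Matrix proteases moved in both directions, with 6 of 13 members lower and 2 higher, beside 10.1% and 9.44% of all probe sets. The gelatinase Mmp2 ranged from 9.02 to 11.06 (median 9.64) and then from 8.78 to 9.79 (median 9.00), and fell by 0.59 (SE 0.09, adjusted p = 1.6e-05). Its membrane-bound activator Mmp14 fell by 0.58, and the inhibitor Timp2, which takes part in that activation, by 0.36. Mmp9, the gelatinase of leukocytes, rose by 0.37 (SE 0.10, adjusted p = 0.0058) from a low level, 4.34 to 5.63 at 1 month and 4.89 to 6.16 at 3 months.

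Mmp12, the macrophage elastase, was the only probe set at least 2-fold higher. Its 1-month arrays lay between 4.47 and 8.94 with a median of 4.95, not far above the control probe sets (median 4.13), and its 3-month arrays between 4.73 and 10.21 with a median of 6.99. The groups overlapped over most of their range, and the change was negative in 1 metal (copper, -0.33). The difference of 1.05 (SE 0.36, adjusted p = 0.035) lost its call in 19 of the alternatives. These were the pairing of replicate numbers (adjusted p = 0.0542), leaving out aluminum, depleted uranium, iron, lead or tungsten (0.0522 to 0.107), and leaving out any of 13 single arrays (0.0519 to 0.0599). Those arrays were the 3-month replicates 3 of aluminum and lead, 1 and 2 of depleted uranium, 1 of iron, 1 and 2 of tantalum and 1 of tungsten, and the 1-month replicates 1 and 3 of depleted uranium, 3 of iron, 2 of tantalum and 1 of tungsten.

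Markers of the cells that make matrix were lower as well. Of 9 measured markers of fibroblasts and fibro-adipogenic progenitors, 7 fell and none rose, with a median of -0.30. The list's median within a metal was -0.56 in tungsten, -0.55 in iron, -0.46 in tantalum, -0.38 in copper and -0.10 in aluminum, but 0.01 in lead and 0.06 in depleted uranium, and 2 of the 9 were below 0 in all 7 metals. As a mean over the 9, the arrays lay between 7.86 and 8.68 at 1 month (median 8.26) and between 7.63 and 8.31 at 3 months (median 7.91). Their part in the lower collagen values was not tested. Fap, fibroblast activation protein, ranged from 7.08 to 8.48 (median 7.56) and then from 6.56 to 7.53 (median 6.94), and fell by 0.62 (SE 0.09, adjusted p = 2.3e-06). The surface markers Thy1, Cd34 and Pdgfra, the last a receptor that defines these progenitors, fell by 0.50, 0.29 and 0.30.

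Tendon genes, which a dissected calf muscle can carry along, were also lower in part: 5 of 10 measured fell and 1 rose. Tnmd (tenomodulin), a marker of tendon cells, ranged from 6.99 to 9.00 (median 7.73) and then from 4.96 to 7.57 (median 6.97), and fell by 0.92 (SE 0.16, adjusted p = 7.8e-05). Kera, a proteoglycan of tendon and cornea, was 0.58 lower (adjusted p = 0.019), without a call when the iron or the tantalum arrays were left out (0.0875 and 0.0569). Without either of these metals the count of lower tendon genes was 3. The gene that rose was Comp, a matrix protein of cartilage and tendon, at 0.25 higher (SE 0.09, adjusted p = 0.038). Its call was lost in 22 alternatives. These were without the arrays of aluminum, lead, tantalum or tungsten (0.0751 to 0.115), without both arrays with a suffix (0.0622), or without any 1 of 17 arrays (0.0519 to 0.0643). The 17 were, at 1 month, replicates 1 and 2 of aluminum, 1 of copper, 2 of iron, 3 of lead, 1 and 2 of tantalum and 1 and 3 of tungsten, and at 3 months replicates 1 and 3 of aluminum, 2 of iron, 2 and 3 of lead, 1 and 3 of tantalum and 3 of tungsten. The part of tendon in the collagen values was not tested.

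Growth factors and imprinted growth genes had 8 of 16 members lower and none higher, beside 10.1% and 9.44% of all probe sets, with a median of -0.12. Without the iron arrays 5 were lower. The other 8 did not pass, among them Igf2 (-0.11, adjusted p = 0.28, limma), Dlk1 (-0.10, 0.26) and Plagl1 (-0.12, 0.16). Ghr was 0.07 higher (adjusted p = 0.12, limma) and above 0 in 6 metals. The list's median was -0.43 in copper but 0.01 in lead. Igf1, the growth factor that drives muscle growth, ranged from 8.45 to 9.84 (median 8.86) and then from 7.64 to 8.86 (median 8.23), and fell by 0.60 (SE 0.08, adjusted p = 7.1e-07). The imprinted genes Mest and Cdkn1c fell by 0.54 and 0.41, and Igfbp5, a binding protein for insulin-like growth factors, by 0.35. Zim1, an imprinted zinc-finger gene outside that list, was among the largest decreases over all genes, with a range from 7.64 to 8.38 (median 7.98) and then from 6.96 to 7.90 (median 7.26). It fell by 0.67 (SE 0.07, adjusted p = 2.1e-09), with all arrays apart in each of the 7 metals.

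Lists of vascular and nerve cells were lower in part. Of 20 cell cycle genes 3 fell and none rose (median -0.06), few genes beside the 10.1% of all probe sets that were lower, so the count is not read as a result about the list. They were Ccna2, a cyclin of DNA replication, by 0.45, Mki67 by 0.38 and Tyms, thymidylate synthase, by 0.22. With cobalt and nickel added 1 of them was lower. Of 14 endothelial markers, 6 fell and none rose (median -0.12). Cdh5, the cadherin of endothelial junctions, ranged from 10.27 to 10.69 (median 10.40) and then from 9.77 to 10.33 (median 10.08), and fell by 0.34 (SE 0.04, adjusted p = 2.0e-07). The endothelial receptor Tek fell by 0.21. Of 8 smooth muscle and pericyte markers, 3 fell, among them the pericyte receptor Pdgfrb by 0.33. Of 10 Schwann cell and myelin genes, 5 fell, with Pmp22, a protein of compact myelin that fibroblasts also make, lower by 0.50 (SE 0.09, adjusted p = 0.00012) and Drp2, of the Schwann cell surface, by 0.40. Means over the members overlapped between months in each of these lists, for example 8.02 to 8.33 and then 7.81 to 8.21 for endothelium.

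The tissue label was checked against markers of muscle fibres. The 8 of 9 fibre markers that were measured had mean levels from 12.7 to 14.1. Of 13 fast-fibre contractile genes, 1 fell and 1 rose, near the shares over all probe sets (10.1% lower and 9.44% higher). These counts are not read as a result about the list. Myh4, the myosin of fast IIB fibres, was 0.11 lower (SE 0.03, adjusted p = 0.0094), without a call when the aluminum arrays were left out (0.0566). Myh1, of IIX fibres, was 0.08 higher (SE 0.03, adjusted p = 0.033), and lost its call in 13 alternatives, among them without depleted uranium, iron, lead, tantalum or tungsten. The others included 5 arrays left out singly: the 3-month replicates 3 of depleted uranium and 2 of iron, and the 1-month replicates 3 of iron, 2 of tantalum and 3 of tungsten. None of 12 slow-fibre genes passed, although their median ranged from +0.61 in aluminum to -0.65 in tantalum.

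Some genes that muscle raises when it loses its nerve or is injured were lower at 3 months. Musk, the receptor kinase that clusters acetylcholine receptors at the synapse, ranged from 6.71 to 7.47 (median 7.04) and then from 6.25 to 7.11 (median 6.60), and fell by 0.39 (SE 0.05, adjusted p = 1.6e-06). Myog (myogenin), a transcription factor of muscle differentiation, fell by 0.32. They were 2 of 3 members that fell among 15 myogenic regulators and denervation genes, and none rose, beside 10.1% and 9.44% of all probe sets. The other 12 did not pass, and the list's median was -0.03. Within a metal the median was -0.21 in copper, -0.18 in tantalum and -0.10 in tungsten. It was above 0 in aluminum (0.09), iron (0.06), lead (0.04) and depleted uranium (0.04). Mybph, a myosin-binding protein of the thick filament, ranged from 8.93 to 10.89 (median 10.15) and then from 7.51 to 10.46 (median 9.38), and fell by 0.78 (SE 0.18, adjusted p = 0.0022).

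Of other genes with large decreases, Itm2a, a membrane protein linked to differentiation of muscle and cartilage, ranged from 9.39 to 10.27 (median 9.63) and then from 8.58 to 9.53 (median 9.02). It fell by 0.68 (SE 0.06, adjusted p = 3.7e-10). Glrx (glutaredoxin), which reverses the binding of glutathione to proteins, ranged from 7.41 to 8.35 (median 7.84) and then from 6.61 to 7.67 (median 7.16), and fell by 0.67 (SE 0.07, adjusted p = 8.0e-09).

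Energy genes shifted little. Of 22 respiratory chain subunits, 11 fell and none rose, with a median of only -0.08. Uqcrfs1, the Rieske iron-sulfur protein of complex III, changed most, with a range from 10.08 to 10.50 (median 10.33) and then from 9.91 to 10.22 (median 10.03). It fell by 0.28 (SE 0.03, adjusted p = 2.0e-07), while Ndufa9 of complex I fell by 0.12 and Atp5mc1, of the ATP synthase ring, by 0.16. The count of 11 depended on the setting: 4 with group means over all arrays of the series, 5 with arrays centred on their medians, 6 without depleted uranium, 7 without aluminum and 7 with replicate numbers paired. Of 18 cholesterol and fatty acid synthesis genes, 4 fell and 1 rose, beside 10.1% and 9.44% of all probe sets. Sqle (squalene epoxidase) ranged from 5.29 to 6.27 (median 5.66) and then from 4.65 to 5.61 (median 5.25), and fell by 0.51 (SE 0.08, adjusted p = 8.2e-06). Acly, which supplies acetyl-CoA for lipid synthesis, fell by 0.36. Without the copper or the tungsten arrays 2 members were lower.

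The circadian clock list had 4 of 15 members higher and 1 lower, beside 9.44% and 10.1% of all probe sets. The lower count is not read as a result about the list. No hour of tissue collection was among the sample facts used here, so a part of time of day in these values was not tested. Nr1d1 (REV-ERB alpha), the repressor at the core of the clock's second loop, ranged from 9.49 to 10.52 (median 10.04) and then from 10.06 to 11.25 (median 10.61), and rose by 0.57 (SE 0.08, adjusted p = 4.5e-06). Per3, Nr1d2 and Ciart rose by 0.28, 0.19 and 0.19. The call of Nr1d2 did not hold without tungsten (0.0517), nor that of Ciart without aluminum, copper, iron or tungsten (0.0519 to 0.0709), so that the count was 2 without tungsten. The member that fell was Npas2, a paralog of the activator Clock, by 0.18 (SE 0.06, adjusted p = 0.020). Its call did not hold without iron (0.0661), tantalum (0.113) or tungsten (0.0605). Their partner genes Dbp (0.14, adjusted p = 0.053) and Bmal1 (-0.08, adjusted p = 0.28) did not pass, though Dbp did in 17 of the 60 alternatives and Bmal1 in 1, with cobalt and nickel added (0.015).

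Genes of the glucocorticoid response and of muscle atrophy had 2 of 18 members higher and 4 lower, beside 9.44% and 10.1% of all probe sets. The higher count is near that share and is not read as a result about the list. The atrophy ligase Fbxo32 (atrogin-1) ranged from 10.90 to 11.48 (median 11.22) and then from 11.29 to 11.88 (median 11.43), and rose by 0.28 (SE 0.04, adjusted p = 1.7e-05). Zbtb16 rose as well (adjusted p = 0.0014, limma), by between 0.17 and 0.23 in the alternatives. Cebpd and Gadd45a, induced by stress and glucocorticoids, fell by 0.34 and 0.30, and the receptor co-chaperone Fkbp5 by 0.25. The list's median was 0.00.

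Nr1d1 apart, the largest increases shared by all 7 metals were in genes outside the lists. Pla2g7, the lipoprotein-associated phospholipase of macrophages, ranged from 5.84 to 7.39 (median 6.40) and then from 6.36 to 8.30 (median 7.04), and rose by 0.62 (SE 0.12, adjusted p = 0.00044). Lingo4, a leucine-rich membrane protein, had its arrays between 7.07 and 8.02 (median 7.61) and then between 7.99 and 8.50 (median 8.18), with nearly no overlap. It rose by 0.61 (SE 0.06, adjusted p = 5.5e-10), and in 6 metals all 3 arrays at 3 months lay above all 3 at 1 month, which 0.314% of probe sets did in at least 6 metals. Lingo4 was chosen by its rise in these same arrays, so this separation is no separate support.

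Gsta3, a glutathione transferase, ranged from 4.37 to 5.22 and then from 4.95 to 6.11, and rose by 0.60 (SE 0.08, adjusted p = 3.5e-07). Reep6, a membrane-shaping protein of the endoplasmic reticulum, ranged from 7.98 to 9.22 and then from 8.43 to 9.51 and rose by 0.56 (SE 0.08, adjusted p = 8.8e-06). Padi2, which converts arginine to citrulline in muscle and other tissue, rose by 0.47, and Cnksr1, a scaffold of Ras signalling, and Cacng6, a subunit of the muscle calcium channel, each by 0.46. Among the 14 highest were also 3 olfactory receptor genes near the background, with Or14j5e at 3.31 to 4.52 and then 3.95 to 4.85. Of 977 olfactory receptor probe sets in all, 53 were higher and 38 lower (5.42% and 3.89%), with a median of 0.00 and a median level of 4.22. Both shares were below those over all probe sets, 9.44% and 10.1%.

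**Figure D3:**
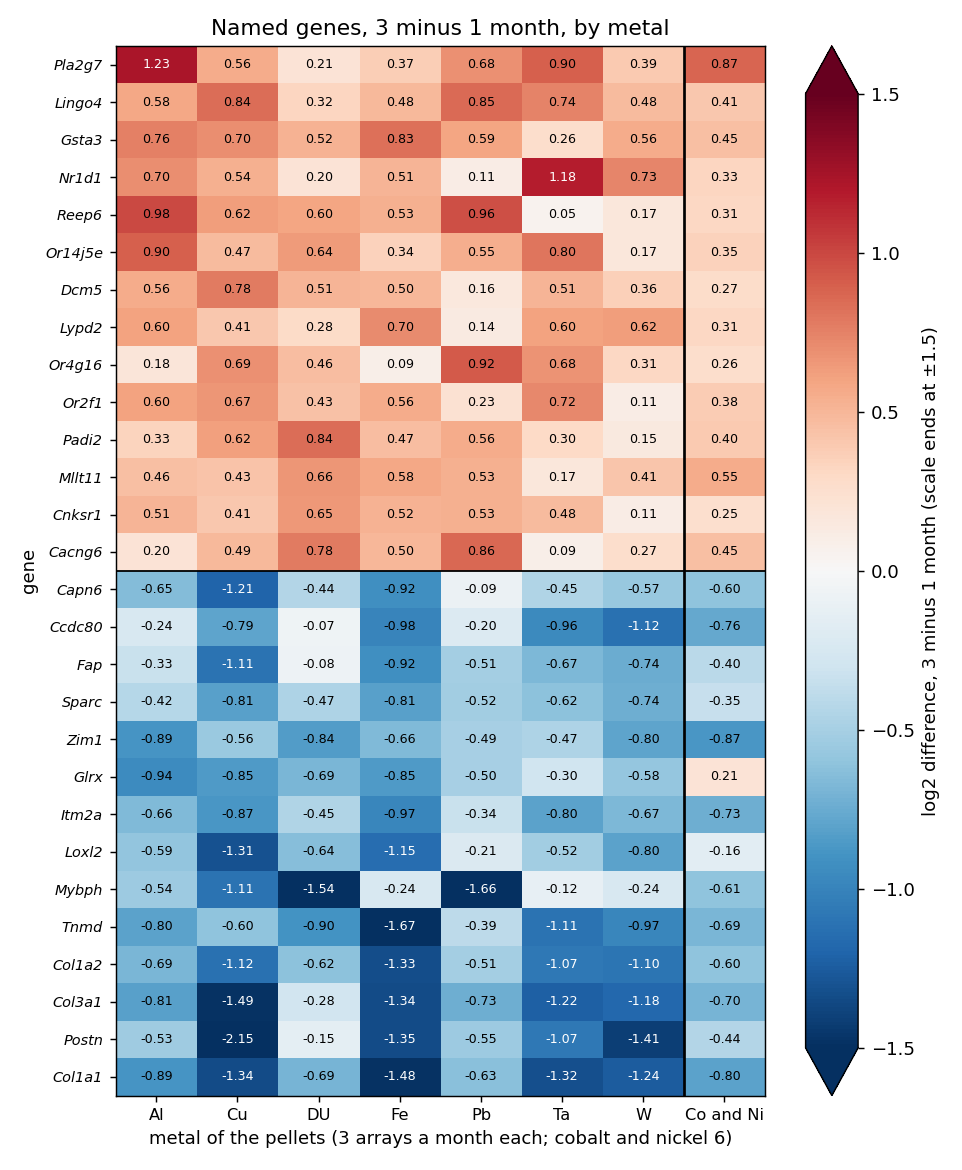
Log2 difference, 3 minus 1 month, for the 14 highest and 14 lowest named genes (rows) in each metal (columns) and, right of the line, over cobalt and nickel, which took no part in the choice of genes. The rows were chosen for one sign in all 7 metals, so that agreement among the 7 columns is fixed by the choice; Postn runs from -2.15 in copper to -0.15 in depleted uranium.

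Interferon-induced genes fell in part, 8 of 19 with none higher and a median of -0.19. Rsad2 (viperin), an antiviral enzyme, ranged from 4.50 to 6.19 and then from 4.22 to 5.13, and fell by 0.49 (SE 0.09, adjusted p = 9.5e-05). Ifi27 ranged from 10.52 to 11.06 and then from 10.32 to 10.97, and fell by 0.30. Ifit3 and Isg15, both interferon effectors, fell by 0.40 and 0.38. Rsad2, Ifit3 and Isg15 were among the dimmest 30% of probe sets. Ifit3 had a mean level of 4.29, near the control probe sets (median 4.13). The list's median was -0.67 in copper muscle. Without the dimmest 30% of probe sets 5 were lower, and with cobalt and nickel added 4.

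Macrophage markers overlapped between the months, with means over 19 markers between 6.68 and 7.92 at 1 month (median 7.13) and between 6.76 and 7.62 at 3 months (median 7.05). Of the 19, 4 fell and none rose: Adgre1, the classic marker of mouse macrophages, by 0.37, the complement subunits C1qb and C1qa by 0.38 and 0.14, and the scavenger receptor Cd163 by 0.28. Adgre1 was the dimmest of the 19, at a mean of 4.64, not far above the control probe sets (median 4.13). The count of lower markers was 1 without the iron or the tungsten arrays and 2 without copper. The list's median ran from -0.55 in copper to +0.27 in depleted uranium. Of 16 markers of T, NK and B cells 1 was higher and 1 lower, and of 8 MHC class II genes 1 was higher and 1 lower. These counts are near the shares over all probe sets (9.44% higher and 10.1% lower) and are not read as a result about the lists. Of the 16 T, NK and B cell markers, 11 were among the dimmest 30% of probe sets. Hmox1, the heme-degrading enzyme, was 0.35 lower (SE 0.11, adjusted p = 0.019), a call that did not hold without copper, lead, tantalum or tungsten (0.0715 to 0.105).

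Within a single metal, 3 arrays were set against 3, with the spread shared over the 14 groups. The number of probe sets passing was 1444 (6.29%) in lead, 968 (4.22%) in copper, 414 (1.80%) in tungsten, 280 (1.22%) in aluminum, 231 (1.01%) in iron, 74 (0.322%) in tantalum and 59 (0.257%) in depleted uranium. Direction differed, with 1005 higher and 439 lower in lead (4.38% and 1.91%) but 280 higher and 688 lower in copper (1.22% and 3.00%). These counts rested on single arrays. In lead the count was 87 without the 1-month replicate 2, which also had the lowest mean correlation with the other arrays (0.980), and 2458 without the 1-month replicate 3. It moved by over 1.5 times when any of the 6 arrays of lead, iron, tungsten or depleted uranium was left out. The same held for 5 of 6 aluminum arrays (33 to 488), 3 copper arrays (as few as 258, the 1-month replicates 1 and 3 and the 3-month replicate 2) and 4 tantalum arrays (as few as 10, all at 3 months and the 1-month replicate 2). The aluminum array without that effect was the 1-month replicate 3. With only the 6 arrays of a metal in the fit, limma called 0 probe sets in each metal, and 2391 to 4330 had an unadjusted p below 0.05.

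In copper muscle the 3 largest decreases among genes with a symbol that passed were those of Postn, Lrrc15 and Lum. Postn fell by 2.15 (adjusted p = 0.00041) and Lum fell by 1.97 (adjusted p = 0.000195). Lrrc15, a surface protein of activated fibroblasts, fell by 2.03 (adjusted p = 0.0046), a call lost without the 1-month replicate 1 or 3 of copper (0.0769 and 0.0517). In depleted uranium muscle Sh3rf2, a ubiquitin ligase with an anti-apoptotic role, rose by 1.5 (adjusted p = 0.0014), and in lead muscle by 1.16 (adjusted p = 0.0036). Nr1d1 rose by 1.18 in tantalum muscle (adjusted p = 0.0016). Pnma8b, of the paraneoplastic antigen family, fell by 0.95 in lead muscle (adjusted p = 0.0040). The paraoxonase Pon3 fell by 0.90 in aluminum muscle (adjusted p = 0.0038), and Cfap210, a protein of cilia, rose by 1.07 in tungsten muscle (adjusted p = 0.0051). Col1a1 fell by 1.48 in iron muscle (adjusted p = 0.0065), a call lost without the 3-month replicate 1 of iron (0.072).

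Whether the change depended on the metal was asked directly, with a moderated F test over the 7 changes. It called 141 probe sets (0.614%), against 4360 at an unadjusted p below 0.05. Of the 141, 32 were also called in the comparison over all metals, which called 19.5% of all probe sets. That overlap is not read as a result. The smallest p belonged to Fxyd1 (phospholemman), the regulator of the sodium pump in muscle, whose change was 0.62 in aluminum, 0.51 in iron, 0.48 in depleted uranium, 0.41 in copper and 0.31 in lead, but -0.08 in tantalum and -0.14 in tungsten (adjusted p = 0.0087). Trmt112, a partner of several methyltransferases, and Rnasek, a membrane protein tied to the proton pump, had tantalum and tungsten apart in the same way, at 0.05 and -0.15 for Trmt112 (0.38 to 0.57 in the other metals) and -0.04 and -0.30 for Rnasek (0.24 to 0.54). The count of 141 was between 17 and 696 when a single array was left out and moved by over 1.5 times for 40 of the 42, all but the 3-month replicates 1 of copper and 2 of depleted uranium.

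The 12 cobalt and nickel arrays were not used above and gave their own comparison of the same months. It called 663 probe sets higher (2.89%) and 445 lower (1.94%). Its count was between 235, without the 3-month replicate 3 of cobalt, and 1368, and moved by over 1.5 times without any of the 6 cobalt arrays, the 1-month replicate 1 or the 3-month replicate 2 of nickel. The difference between these 2 metals and the other 7 was not tested. Col1a1 fell by 0.80 there (adjusted p = 0.017), Col3a1 by 0.70 (0.013) and Itm2a by 0.73 (0.0018). Of the 17 matrix genes, 6 fell and 1 rose, the proteoglycan Bgn by 0.65 (adjusted p = 0.037). Serpinh1 (-0.21, adjusted p = 0.11) and Igf1 (-0.03, adjusted p = 0.93) did not pass in the 12 arrays.

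Immune genes had other values in those metals. Of 19 macrophage markers 11 rose and none fell in cobalt and nickel muscle, with a median of 0.86, beside -0.08 over the 7 metals. T, NK and B cell markers had a median of 0.97, with 7 of 16 higher, beside -0.06. Mki67, a marker of cycling cells, rose by 1.10 there (adjusted p = 0.012), beside a fall of 0.38 over the 7 metals (adjusted p = 0.0020). Of the 20 cell cycle genes 3 rose and none fell in cobalt and nickel muscle, with a median of 0.21. Hmox1 rose by 2.11 (adjusted p = 0.034) in cobalt and nickel muscle.

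The levels in the same 7 metals at 6 and 12 months, 21 arrays each, are given as a description. Col1a1 had a mean log2 level of 11.73 ± 0.37 (SD, n = 21) at 1 month, 10.65 ± 0.39 at 3, 9.64 ± 0.29 at 6 and 9.34 ± 0.25 at 12 months. Sparc stood at 12.55 ± 0.24 (SD, n = 21) at 1 month, 11.92 ± 0.15 at 3, 11.23 ± 0.23 at 6 and 10.90 ± 0.22 at 12 months. All 17 matrix genes had a lower mean at 12 months than at 1 month. Mybph stood at 10.06 ± 0.54 (SD, n = 21) at 1 month, 9.28 ± 0.72 at 3, 10.40 ± 0.29 at 6 and 10.39 ± 0.46 at 12 months, so that its 3-month level was the lowest of the 4. Musk was lowest at 3 months too, at 7.03 ± 0.19 (SD, n = 21) at 1 month, 6.65 ± 0.21 at 3, 7.04 ± 0.22 at 6 and 6.99 ± 0.26 at 12 months. Among the higher genes, Lingo4 stood at 7.61 ± 0.24 (SD, n = 21) at 1 month, 8.22 ± 0.15 at 3, 8.33 ± 0.16 at 6 and 8.60 ± 0.16 at 12 months, highest at the last month, whereas Mllt11, a small protein first found as a leukemia fusion partner, was highest at 3 months, at 8.81 ± 0.38 (SD, n = 21) at 1 month, 9.28 ± 0.34 at 3, 8.66 ± 0.34 at 6 and 8.57 ± 0.40 at 12 months.

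**Figure D4:**
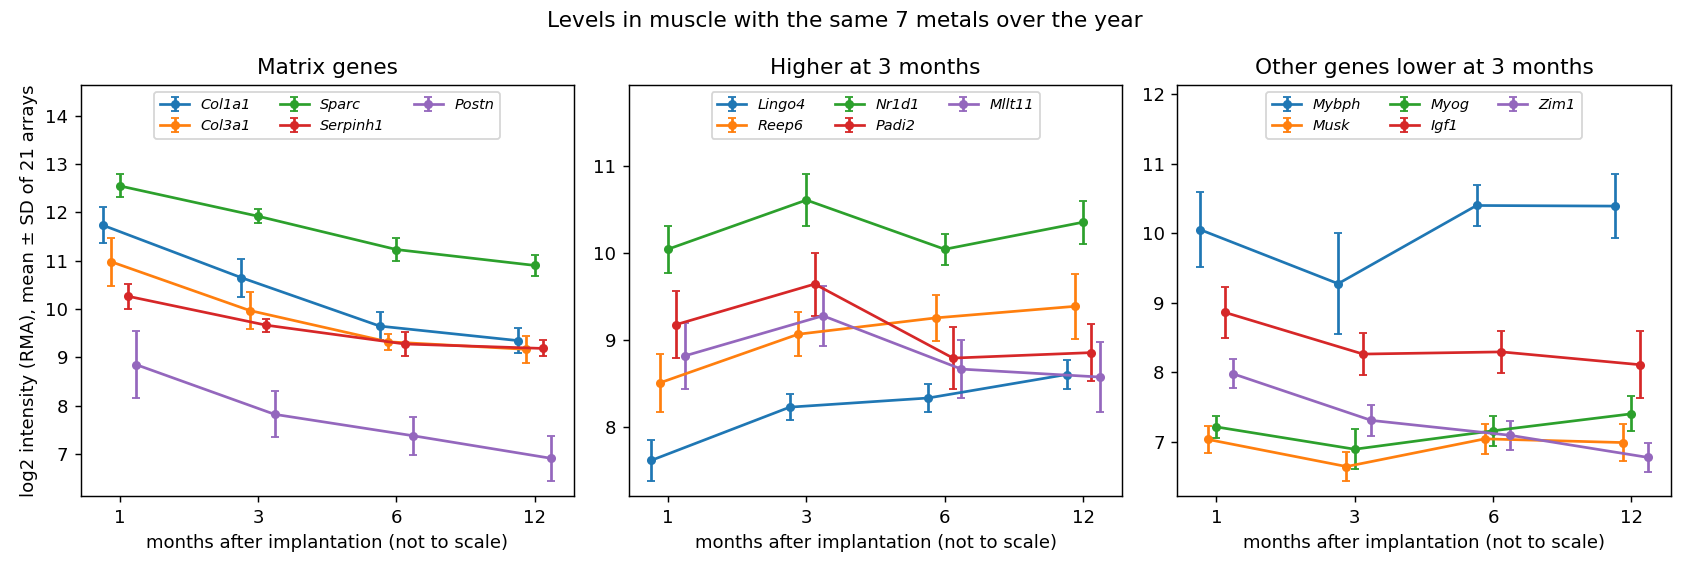
Mean log2 intensity with SD over 21 arrays (y axis) at 1, 3, 6 and 12 months (x axis, not to scale) in muscle with the same 7 metals. The matrix genes have their lowest means at 12 months, while Mybph and Musk are lowest at 3 months.

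Calls were more frequent among bright probe sets, as the plot by brightness shows. Probe sets were put in 10 equal classes by mean intensity. In the dimmest class 6.84% were higher and 5.18% lower, and in the brightest 18.5% and 12.9%. Lower calls outnumbered higher ones in the middle of the scale, with 14.5% against 7.88% in class 7. Array medians lay between 6.43 and 6.54 and the medians of the control probe sets were 4.13 at both months. From 88.5% to 93.2% of the tested probe sets exceeded the control median of their array.

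**Figure D5:**
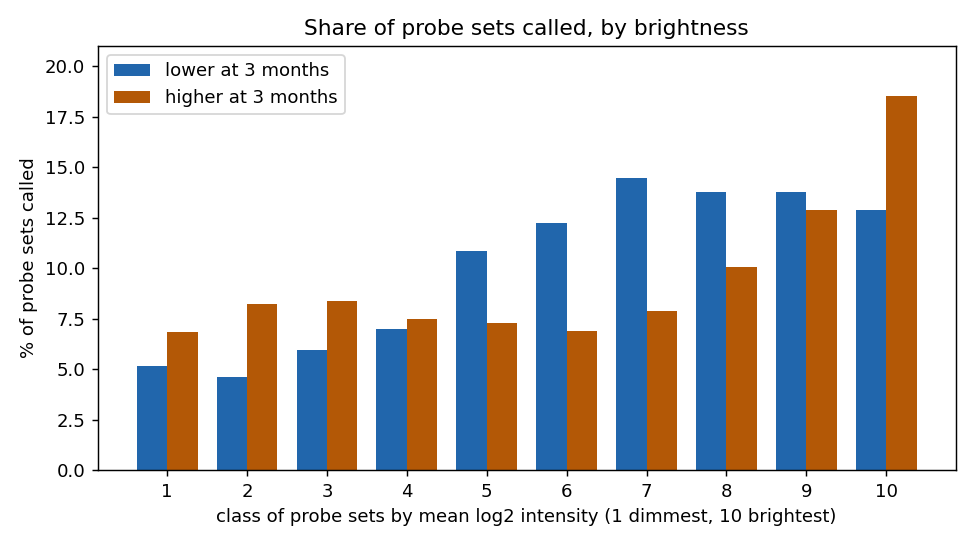
Percentage of probe sets called lower (blue) and higher (orange) at 3 months (y axis) in 10 equal classes of the tested probe sets by mean log2 intensity (x axis). Higher calls range from 6.84% in the dimmest class to 18.5% in the brightest.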

How the data were processed

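RNA from gastrocnemius was hybridised to Clariom S Rat arrays, 250 ng per array, pooled from 2 to 3 rats. The deposited values are log2 intensities, made by the authors with robust multi-array averaging (RMA) in the R package oligo under R 4.0.1, per the submitters' processing notes. Whether all arrays went through RMA together, and the build behind the array annotation, are not given in the sources used here. Of 22977 probe sets, 23 controls were left out and 22954 tested without a filter on dim ones. Symbols came from the platform annotation, updated by gene ID to RefSeq's GRCr8 table (14855 probe sets with 1 symbol, 8099 with none here).

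Tests used limma 3.58.1 in R 4.3.3 (lmFit, eBayes), with metal as a factor and month as the tested term (34 residual degrees of freedom), two-sided, with Benjamini-Hochberg adjustment over all probe sets and a threshold of 0.05. Changes within a metal and the F test used 1 mean per metal and month (28 residual degrees of freedom). The fits were tested on simulated data. The number of arrays limits the precision. Named genes were the 14 highest and 14 lowest called differences with 1 sign in all 7 metals, up to 4 members per list by p and members needed to show a count, the 6 smallest p of the F test and the 3 highest and 3 lowest per metal; the text names a part of them. Members, the 38 lists and tests were chosen with earlier results of these data known. Alternatives were other models, filters, scalings and weights, replicate blocks, cobalt and nickel added, and leaving out each metal or array.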

Additional observations from a re-analysis of the deposited data

Results flagged for a closer look

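The change from 1 to 3 months differed between the 7 metals for 141 probe sets by limma's moderated F test of the metal-by-month terms, and each result here is listed because that test of the difference passed. For Fxyd1 the adjusted p was 0.00869, with changes of -0.08 in the tantalum sham and -0.14 in tungsten and between 0.31 and 0.62 in the other 5 metals. Slc35a5, a solute carrier of the nucleotide-sugar transporter family, had an adjusted p of 0.0131 and changed by 0.91 in lead, 0.49 in tantalum and -0.45 in copper. Trmt112 had an adjusted p of 0.0157. Emx2, a homeobox gene, had an adjusted p of 0.0173, with 0.58 in aluminum, -0.61 in tungsten and -0.79 in tantalum. The olfactory receptor gene Or4k45, near the array background at levels between 3.14 and 3.92, and Rnasek had the same adjusted p of 0.0173.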

How the results depend on the processing

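The comparison over 7 metals was repeated under 18 other settings and without each of the 42 arrays. Its counts stayed within 1.5 times of 4481, 2168 higher and 2313 lower: 3500 (without tungsten) to 5311 (cobalt and nickel added) under the settings, and 4156 to 4783, 1996 to 2250 and 2156 to 2533 with an array left out. Of 109 named genes called, 82 kept their call and direction in every alternative in which they were tested. Dim genes among them, such as Gsta3, Rsad2 and Ifit3, were not tested in the alternative without the dimmest probe sets. With cobalt and nickel added, Hmox1 (0.19, adjusted p = 0.541) and Cxcl9 (0.065, adjusted p = 0.826) turned positive. These estimates then take in the cobalt and nickel arrays, in which Hmox1 rose, as given above. Why these metals differed was not tested. Same-numbered arrays did not deviate together at the median (correlation -0.003 over 126 pairs within a month and 0.011 over 21 pairs across months). Single pairs lay between -0.24 and 0.21 and between -0.15 and 0.19. A median over all probe sets cannot exclude that the numbers pair some groups or genes. With a replicate block within each month 4356 probe sets passed, and 3833 with a replicate block of 21 pairs.

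The other counts moved more, from causes not tested. The 141 probe sets that differed between metals became 353 without the dimmest 30%, 790 with an intensity trend and robust hyperparameters, 459 with array weights, 51 with the replicate block, 14 without both arrays with a suffix, and 91, 45, 11, 17, 5, 40 and 43 without aluminum, copper, depleted uranium, iron, lead, tantalum and tungsten (17 to 696 without an array). Group means over all arrays of the series gave 102 calls in aluminum, 18 in depleted uranium, 662 in lead and 273 in tungsten. Without the dimmest probe sets there were 421 in aluminum, 98 in depleted uranium, 374 in iron and 133 in tantalum; with the trend 510, 192, 481 and 168. Array weights gave 1703 in copper, 199 in depleted uranium and 481 in iron. Depleted uranium had 93 calls after a second quantile normalization, 34 with centred arrays and 39 with the replicate block, and tantalum 41 with centred arrays. With only the 6 arrays of a metal the counts were 0 in limma, with 2391 to 4330 at an unadjusted p below 0.05. Leaving out an array gave 33 to 488 in aluminum, 258 to 1122 in copper, 6 to 30 in depleted uranium, 43 to 134 in iron, 87 to 2458 in lead, 10 to 65 in tantalum and 87 to 214 in tungsten. Over cobalt and nickel the count was 235 to 1368 without an array and 100 with a replicate block of 6 pairs.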

Other observations

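Protein folding in the endoplasmic reticulum and zinc handling had members that moved. Of 20 genes of the unfolded protein and amino acid stress responses, 5 fell and 3 rose over the 7 metals (median -0.04). Over all probe sets, 10.1% were lower and 9.44% higher. The chaperones Pdia4 and Hsp90b1 fell by 0.24 (adjusted p = 5.2e-05) and 0.19 (adjusted p = 0.00014), and Herpud1, of the degradation pathway, rose by 0.21 (adjusted p = 0.0017). Without the lead or the tantalum arrays 1 member was higher. With cobalt and nickel added 1 member was lower, and the calls of Pdia4 and Hsp90b1 did not hold (adjusted p = 0.924 and 0.648). In cobalt and nickel muscle 6 of the 20 rose and none fell, with Pdia4 higher by 0.79 (adjusted p = 0.022) and Hsp90b1 by 0.49 (adjusted p = 0.034); that difference from the 7 metals was not tested. Of 9 metallothionein and zinc transport genes 4 fell, or 2 without the tungsten arrays or with cobalt and nickel added, and Mt1, a metal-binding metallothionein, was 0.31 lower (adjusted p = 0.0087, and 0.0742 without tungsten and 0.995 with cobalt and nickel added). Of 17 cytosolic ribosomal proteins, 5 fell and 3 rose (median -0.04), beside the same shares over all probe sets.

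Limits on these results are few arrays per group, pooled animals and 1 cohort per month, so that a month, the age of the rats and a cohort cannot be told apart. RMA makes the arrays' intensity distributions alike, so a change shared by most genes would not be seen, and RNA per muscle is not measured.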
